A study of Rattus norvegicus with 30 samples.

Results

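Fos, Fosl1, Fosl2, Jun, Junb and Jund encode the classical Fos and Jun families of the transcription factor AP-1. They were described here in rat left ventricle across 6 protocols of preconditioning and ischaemia. Members were taken by gene symbol from the table that pairs probe sets with genes. This gave 13 probe sets for 6 genes among 8799 probe sets on the array. Of these, 12 probe sets for 5 genes entered the tests, beside 5244 probe sets tested in all. The Jund probe set was among the 40% with the lowest mean signal, which were left out of the tests.

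Total RNA was measured on 30 Affymetrix arrays, with 5 biological replicates in each of 6 groups. The groups were hearts with ischaemic preconditioning (IPC), hearts with anaesthetic preconditioning (APC), hearts with ischaemia (ISCH), hearts given the trigger of ischaemic preconditioning (IPC_TRI), hearts given the trigger of anaesthetic preconditioning (APC_TRI), and control hearts (CTL). The labels set ischaemia and reperfusion against the pharmacological and ischaemic forms of preconditioning, and the trigger is the usual name of the preconditioning stimulus on its own. No label gives the rat strain and age, the anaesthetic, the way the hearts were perfused or the durations, so neither the time of sampling nor the exact content of the 2 trigger protocols can be stated.

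AP-1 is a dimer of leucine zipper proteins. Jun proteins pair with each other or with Fos proteins, whereas Fos proteins bind DNA only as partners of a Jun protein, and the dimer recognises the TPA response element or the related cyclic AMP response element. Fos, Jun and Junb are immediate early genes, transcribed within minutes of a stimulus from factors already present in the cell and switched off soon after. MAP kinases drive both their transcription and the activity of their proteins. In the heart their transcripts are known to rise on stretch, ischaemia and reperfusion.

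The deposited values were linear intensities scaled to a common mean, with a trimmed mean between 500.8 and 501 on every array and medians between 114.6 and 189.2. Levels below are these deposited intensities. Changes are log2 differences of quantile normalized values ± standard error (SE), with 5 arrays a group and limma's p adjusted over all probe sets tested, with calls made where that p was under 0.05. The number of arrays limits the precision. Signals of different probe sets cannot be set against each other as amounts of RNA. Ventricular muscle markers were bright on every array, with a sum between 208010 and 556714 over the 11 of 12 listed genes on the array. The samples were pieces of tissue, in which a change in the number of cells of a type and a change in RNA per cell cannot be told apart.

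Fos had 3 probe sets, Jun 4, Junb and Fosl2 2 each, and Fosl1 and Jund 1 each. In the text a gene stands for its brightest probe set unless another is named. The test of any difference among the 6 groups called 3 of the 5 member genes, which were Fos (adjusted p = 5.9e-09), Jun (adjusted p = 2.2e-15) and Junb (adjusted p = 0.022). It called 31.6% of all probe sets. Junb was no longer called in that test without IPC 2, IPC 3 or IPC 4, and Fosl2 was called as well with array weights.

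Fos, the first described partner of Jun, was high in IPC, APC and ISCH and low in IPC_TRI, APC_TRI and CTL. On the brightest probe set (X06769cds_g_at) the 5 IPC arrays read 18203, 17618, 17739, 17813 and 11955, and the APC arrays read 18013, 22049, 16452, 20505 and 13757. The ISCH arrays read 17581, 16616, 14591, 17024 and 12806. The lowest array of these 15 was IPC 5, and the other IPC arrays lay close together. The IPC_TRI arrays read 7604, 8810, 12053, 6724 and 4229, the APC_TRI arrays 5837, 5843, 6095, 3838 and 9451, and the CTL arrays 5581, 4897, 6640, 4777 and 7652. As deposited, IPC_TRI 3 lay just above IPC 5, and it was the one array of the low groups to reach into the range of the high groups. After normalization the ranges of IPC and IPC_TRI no longer met.

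In means, Fos read 16666 ± 2642 in IPC, 18155 ± 3277 in APC, 15724 ± 1983 in ISCH, 7884 ± 2873 in IPC_TRI, 6213 ± 2026 in APC_TRI and 5910 ± 1223 in CTL (SD, n = 5 each). In the order of normalized means, APC stood above IPC, ISCH, IPC_TRI, APC_TRI and CTL. Between neighbours in that order only ISCH and IPC_TRI had ranges that did not overlap and a gap wider than the larger SD. The rest of the order lay within the spread of the arrays.

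Jun, which forms the active dimer with Fos or with itself, showed the wider step. On its brightest probe set (rc_AI175959_at) the IPC arrays read 8774, 9163, 9686, 8951 and 6391, the APC arrays 10761, 10093, 6745, 9260 and 10313, and the ISCH arrays 5753, 10395, 10554, 8980 and 6017. The IPC_TRI arrays read 841, 912.1, 1450, 1241 and 657.2, the APC_TRI arrays 1162, 724.9, 1010, 1339 and 791.9, and the CTL arrays 897.9, 1758, 1265, 1505 and 1211. Every array of IPC, APC and ISCH lay above every array of the other 3 groups. ISCH was the most spread of the high groups, with ISCH 1 and ISCH 5 well under its other arrays.

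Jun averaged 8593 ± 1278 in IPC, 9434 ± 1599 in APC, 8340 ± 2325 in ISCH, 1020 ± 320 in IPC_TRI, 1005 ± 255 in APC_TRI and 1327 ± 323 in CTL (SD, n = 5 each). CTL stood above both trigger groups in the order of means, by less than the spread of the arrays. As with Fos, the one clear gap between neighbours was between ISCH and the next group below it, which for Jun was CTL.

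Junb, a Jun family protein that activates many AP-1 sites more weakly than Jun and can oppose it, did not follow Fos and Jun. The IPC arrays of its brighter probe set (rc_AA891041_at) read 2202, 4402, 3762, 3796 and 1711, and the APC arrays 2423, 3006, 2256, 1294 and 2908. The ISCH arrays read 1699, 1419, 2043, 1395 and 1278. IPC fell into 3 high arrays and 2 that lay within the range of the other groups. The IPC_TRI arrays read 1472, 1771, 2065, 1538 and 1526, the APC_TRI arrays 2436, 1147, 1477, 1922 and 1403, and the CTL arrays 1930, 2498, 1459, 1183 and 1557. Means were 3175 ± 1154 in IPC, 2377 ± 683 in APC, 1567 ± 307 in ISCH, 1674 ± 247 in IPC_TRI, 1677 ± 508 in APC_TRI and 1725 ± 508 in CTL (SD, n = 5 each). ISCH thus had the lowest mean, level with CTL, and no neighbours in the order of means differed beyond their spread.

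**Figure D1:**
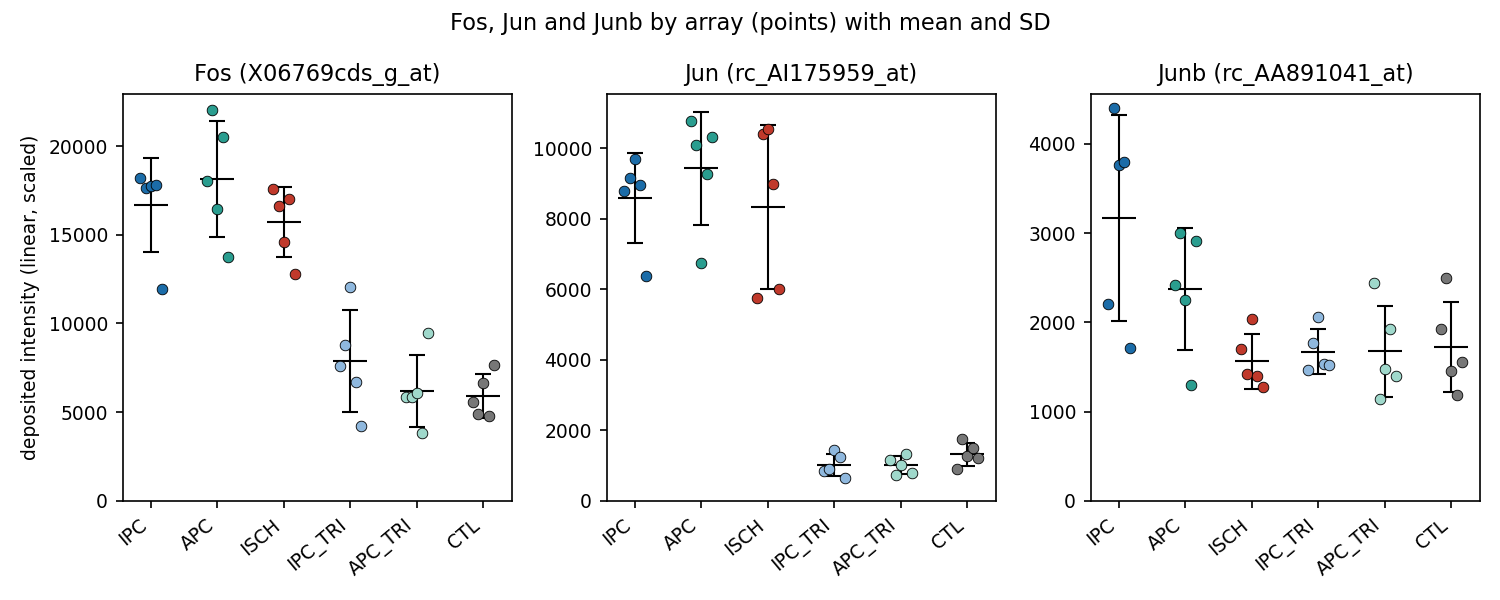
Deposited intensity (linear scale, from 0) of the brightest probe set of Fos, Jun and Junb on each of the 30 arrays, by group. Points are arrays, and lines are the mean and SD of 5 arrays. Fos and Jun were high in IPC, APC and ISCH, while Junb was highest on 3 IPC arrays and in ISCH stayed within the range of CTL.

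The promoter windows of Junb and Jund are shown because Junb was the one immediate early member that differed in pattern. Jund is the one member searched whose window holds a full cyclic AMP response element. No window was available for Fos or Jun, so these were not searched. Each runs from 250 bases before to 50 after the annotated start (RefSeq, build GRCr8). Capitals mark matches to the cyclic AMP response element TGACGTCA or to its core TGACG, which the full element contains, on either strand. The Junb window is chr19:40080876-40081175 on the plus strand, and the Jund window is chr16:18769722-18770021 on the minus strand.
Junb: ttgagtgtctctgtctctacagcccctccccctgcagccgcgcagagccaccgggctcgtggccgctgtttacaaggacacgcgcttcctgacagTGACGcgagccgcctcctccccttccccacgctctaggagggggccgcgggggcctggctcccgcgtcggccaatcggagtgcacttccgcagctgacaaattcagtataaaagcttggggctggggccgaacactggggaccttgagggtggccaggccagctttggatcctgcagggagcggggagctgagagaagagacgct
Jund: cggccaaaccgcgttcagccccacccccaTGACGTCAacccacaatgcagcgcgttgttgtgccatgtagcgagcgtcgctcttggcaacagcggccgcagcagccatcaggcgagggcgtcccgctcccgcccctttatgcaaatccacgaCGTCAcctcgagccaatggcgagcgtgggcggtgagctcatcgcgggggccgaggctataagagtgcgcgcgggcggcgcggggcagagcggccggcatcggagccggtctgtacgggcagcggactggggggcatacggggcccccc

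The Junb window held 1 core, at position -155 from the start, and none of the full cyclic AMP response element, the AP-1 site TGANTCA, the jun site TGACATCA or the CArG box of the serum response element. The Jund window held 1 full element at -221, whose letters also give cores at -221 and -218, and a further core lies at -98. Of the other members with a window in the table, Fosl1 (chr1:212183635-212183934, plus strand) had cores at -148 and -84, and Fosl2 (chr6:30039220-30039519, minus strand) had no match to any of these motifs. Over 33469 windows of the same length, 21.2% held the core, 1.83% the full element, 7.33% the AP-1 site, 4.34% the jun site and 1.64% the CArG box. These matches describe letters in the windows only.

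The first comparison set hearts with ischaemia and no preconditioning against control hearts. Fos rose by 1.29 ± 0.19 in ISCH against CTL on the log2 scale (adjusted p = 2.1e-05), which is 2.44-fold, and Jun rose by 2.64 ± 0.22 (adjusted p = 3.9e-10), which is 6.24-fold. For both genes the ranges of ISCH and CTL did not overlap. Junb had -0.04 ± 0.24 (adjusted p = 0.95), with a 95% interval from -0.54 to 0.45. So 2 of 5 member genes rose and 0 fell, beside 3.95% of all probe sets that rose and 8.77% called in either direction. The groups did not overlap, with ISCH higher, for 4.46% of all probe sets.

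All 3 Fos probe sets rose (1.29 to 1.77) and all 4 Jun probe sets rose (1.90 to 2.64), and none of the 7 overlapped between ISCH and CTL. The second Junb probe set (X54686cds_at) had 0.04 ± 0.25. The median over the 5 member genes was 0.39, against -0.01 over all probe sets tested. These comparisons, and the next, share the CTL arrays.

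The signal of the bacterial control RNAs spiked into the samples also differed, with a mean log2 signal of 12.02 ± 0.61 in ISCH and 10.8 ± 0.69 in CTL (SD, n = 5 each). With that signal as a covariate Fos rose by 1.21 (adjusted p = 0.0048) and Jun by 2.65 (adjusted p = 5.3e-07). The spike signal averaged 10.9 ± 0.43 in IPC and 10.8 ± 0.24 in APC. Of 6 fibroblast markers, 4 rose in ISCH and 0 in IPC or APC against CTL by limma (0 also at an unadjusted p under 0.05), and their summed signal ran from 34102 to 66626 in ISCH and from 21295 to 27329 in CTL. It ran from 26213 to 51017 in IPC, 20578 to 31811 in APC, 35057 to 73097 in IPC_TRI and 37735 to 42107 in APC_TRI. In each trigger group 1 of the 6 was called higher than in CTL, Dcn, by 0.93 in IPC_TRI and 0.85 in APC_TRI. Of 2 adipocyte markers tested, Fabp4, a fatty acid binding protein, was high in IPC, APC and ISCH, as were Fos and Jun. It read 741 ± 338 in IPC, 782.2 ± 215 in APC, 827.1 ± 142 in ISCH, 136.1 ± 82.8 in IPC_TRI, 44.9 ± 31.5 in APC_TRI and 198 ± 42.0 in CTL (SD, n = 5 each). It was called higher in IPC, APC and ISCH against CTL, by 1.70, 1.87 and 1.97, and in IPC and APC against their triggers, by 2.54 and 3.91. Unlike Fos and Jun, it was also called lower in APC_TRI against CTL (-2.04, adjusted p = 3.8e-04). The other adipocyte marker tested was not called in any of these comparisons, nor did it reach an unadjusted p under 0.05 in limma. The summed signal of the 3 adipocyte markers on the array, Fabp4 among them, ran from 1779 to 2771 in IPC and 2350 to 2497 in APC. It ran from 2050 to 3082 in ISCH, 1043 to 2214 in IPC_TRI, 1339 to 2125 in APC_TRI and 1255 to 2132 in CTL. Of 11 cardiomyocyte markers, Myh6, Ryr2 and Atp2a2 were called lower in ISCH against CTL, and 0 were called higher. The myeloid marker Cd14 (1 of 3 tested) was called lower in ISCH, IPC and APC against CTL (-0.88 in ISCH). It was also called lower in IPC and APC against their triggers. The endothelial marker Selp was called lower in the same comparisons (-1.94 in ISCH). Of 7 endothelial markers, 2 were called lower and 1 higher in ISCH against CTL. The part of any of these cell types in the rise of Fos and Jun was not tested.

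With ischaemic preconditioning, Fos rose by 1.49 ± 0.19 in IPC against CTL (adjusted p = 2.7e-06), Jun by 2.77 ± 0.22 (adjusted p = 1.9e-10) and Junb by 0.83 ± 0.24 (adjusted p = 0.045). Thus 3 of 5 member genes rose, beside 1.87% of all probe sets that rose and 3.89% called in either direction. For Fos and Jun the ranges of IPC and CTL did not overlap, which held for 3.15% of all probe sets with IPC higher. For Junb the ranges overlapped, and 3 of the 5 IPC arrays lay above the highest CTL array. Its second probe set had 0.65 ± 0.25 (adjusted p = 0.20), which did not pass. All 4 Jun probe sets were called, but the dimmest (rc_AA944014_at, 1.03, adjusted p = 0.039) lost its call without any of IPC 1, 3, 4 and 5 or CTL 1, 2, 4 and 5 (0.93 to 1.08, adjusted p from 0.0503 to 0.12). The median over member genes was 0.83, against 0.01 over all probe sets.

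The Junb call sat at the threshold. It ended when IPC 2, IPC 3, IPC 4, CTL 1, CTL 3, CTL 4 or CTL 5 was left out, with changes from 0.68 to 0.89 and adjusted p from 0.057 to 0.18, and when any of 6 arrays of other groups was left out (APC 1 and 3, APC_TRI 3 and 5, ISCH 2 and 4), with adjusted p of 0.051 or 0.052. Without IPC 5, the lowest IPC array, the change was 1.03 (adjusted p = 0.0075).

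With anaesthetic preconditioning, Fos rose by 1.61 ± 0.19 in APC against CTL (adjusted p = 5.7e-07) and Jun by 2.90 ± 0.22 (adjusted p = 4.6e-11), again with no overlap. Junb had 0.46 ± 0.24 (adjusted p = 0.54) on the brighter probe set and 0.66 ± 0.25 (adjusted p = 0.19) on the second. The second did not overlap between APC and CTL, but neither passed. In all 2 of 5 member genes rose, beside 1.37% of all probe sets that rose and 3.66% called in either direction, and 2.99% of probe sets did not overlap with APC higher.

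**Figure D2:**
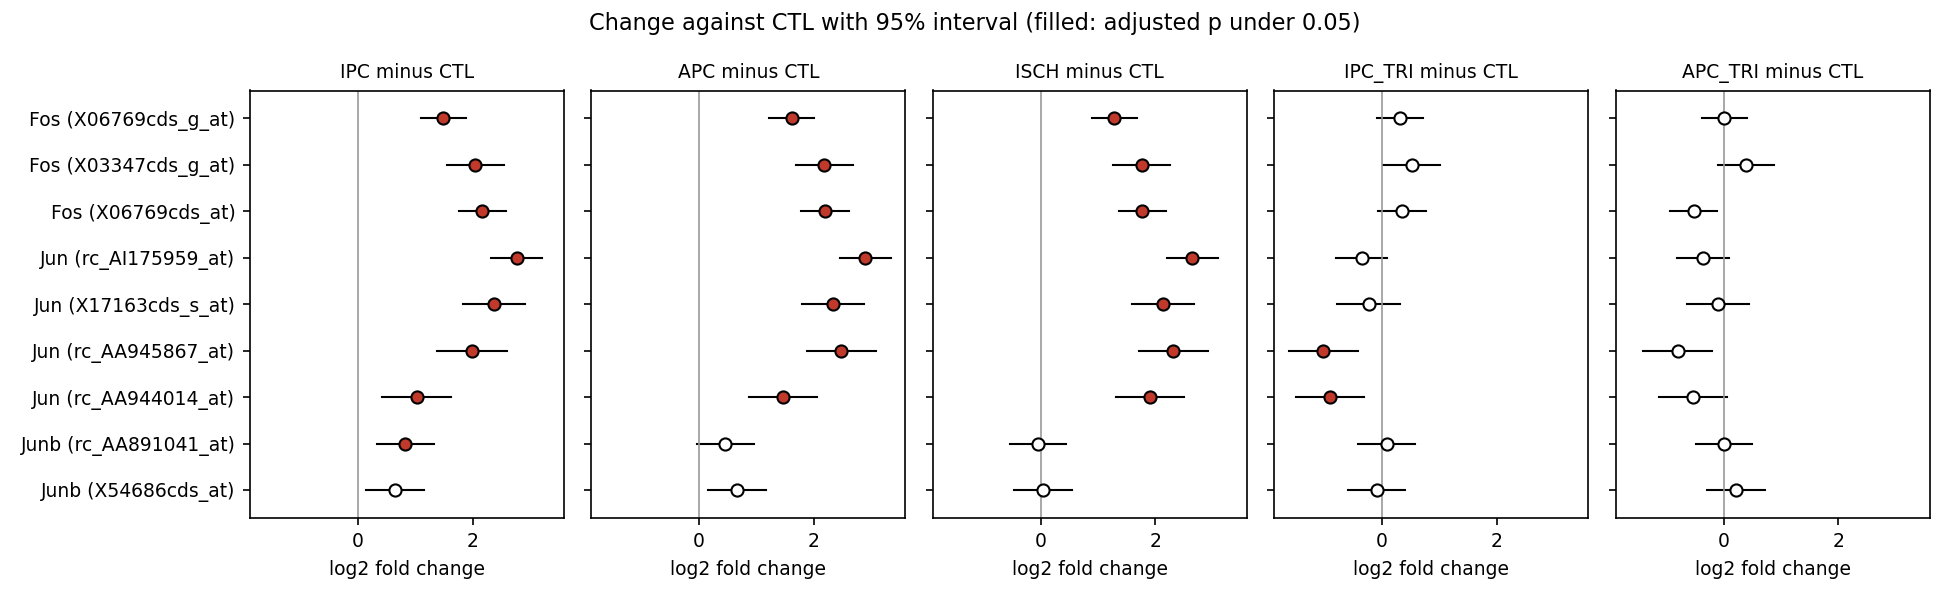
Log2 fold change (horizontal axis) of each Fos, Jun and Junb probe set in each group minus CTL, with 95% intervals. Filled points had an adjusted p under 0.05. All 3 Fos and all 4 Jun probe sets were called higher in IPC, APC and ISCH, and the 2 dimmer Jun probe sets were called lower in IPC_TRI.

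The next question was what each trigger did on its own. Against CTL, Fos had 0.32 ± 0.19 in IPC_TRI (adjusted p = 0.27) and 0.02 ± 0.19 in APC_TRI (adjusted p = 0.98). The other Fos probe sets had 0.52 and 0.35 in IPC_TRI, and 0.39 and -0.52 in APC_TRI, where they went opposite ways, and none was called. Jun had -0.35 ± 0.22 in IPC_TRI (adjusted p = 0.27) and -0.36 ± 0.22 in APC_TRI (adjusted p = 0.31). Junb had 0.08 ± 0.24 in IPC_TRI and 0.01 ± 0.24 in APC_TRI. So limma called 0 of 5 member genes in either trigger group, in which 16.6% (IPC_TRI) and 8.64% (APC_TRI) of all probe sets were called. At an unadjusted p under 0.05, all probe sets gave 1674 in IPC_TRI and 1342 in APC_TRI, and none of the 5 member genes was among them by its brightest probe set. The second Fos probe set was among them in IPC_TRI and the third in APC_TRI. Of the Jun probe sets, the 2 dimmer ones were among them in IPC_TRI, and rc_AA945867_at in APC_TRI.

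The 4 Jun probe sets differed in IPC_TRI, where 10.1% of all probe sets were called lower. The 2 dimmer ones fell, by 1.02 ± 0.30 (rc_AA945867_at, adjusted p = 0.018) and by 0.90 ± 0.29 (rc_AA944014_at, adjusted p = 0.033), while the 2 brighter ones had -0.35 ± 0.22 and -0.23 ± 0.26. On rc_AA945867_at the IPC_TRI arrays read 77.1, 203.7, 92, 61.5 and 147.7, against 192.5, 156.1, 239.8, 201.2 and 209.9 in CTL, and the ranges overlapped. The first of these calls ended without IPC_TRI 1 (-0.86, adjusted p = 0.053), and the second without IPC_TRI 1 or any of CTL 1, 3, 4 and 5 (-0.91 to -0.69, adjusted p from 0.0502 to 0.10). Both calls also ended with the values as deposited, with only the groups compared and with the beta-actin ratio, a sign of RNA quality, as a covariate, and the second also with array weights. That ratio, as log2 of the 3′ over the 5′ control probe sets, was -0.46 ± 0.37 in IPC_TRI and 0.08 ± 0.24 in CTL (SD, n = 5 each). With the mean over all 4 probe sets Jun had -0.63 in IPC_TRI (adjusted p = 0.016). No Jun probe set was called in APC_TRI, where their values ran from -0.80 to -0.10. The difference between the 2 trigger groups was not called for any Jun probe set (-0.37 to 0.00).

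Set against their own trigger groups, the preconditioned hearts showed a rise of Fos and Jun. Fos rose by 1.18 ± 0.19 in IPC against IPC_TRI (adjusted p = 5.7e-05) and by 1.59 ± 0.19 in APC against APC_TRI (adjusted p = 5.0e-07). Jun rose by 3.12 ± 0.22 in IPC against IPC_TRI (adjusted p = 2.4e-11) and by 3.25 ± 0.22 in APC against APC_TRI (adjusted p = 4.2e-12). Junb rose in IPC against IPC_TRI on both probe sets, by 0.75 ± 0.24 (adjusted p = 0.024) and 0.74 ± 0.25 (adjusted p = 0.028). In APC against APC_TRI it had 0.45 ± 0.24 (adjusted p = 0.20) and 0.45 ± 0.25 (adjusted p = 0.20). The counts were 3 of 5 member genes for IPC, beside 14% of all probe sets higher and 23.4% called, and 2 of 5 for APC, beside 9.82% higher and 17.7% called. In IPC against IPC_TRI the split of all calls moved with the scaling, with 732 of 1228 higher after quantile normalization and 1012 of 1248 after centring each array on its median, which shifted the median of all probe sets by 0.14. Fos, Jun and Junb were called higher under both.

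RNA quality also differed in these comparisons. The same log2 beta-actin ratio was 0.34 ± 0.26 in IPC and -0.46 ± 0.37 in IPC_TRI, and 0.04 ± 0.27 in APC and -0.36 ± 0.28 in APC_TRI (SD, n = 5 each). With this ratio as a covariate Fos and Jun were still called in both comparisons, while the brighter Junb probe set in IPC against IPC_TRI had 0.99 (adjusted p = 0.081) and lost its call. The second Junb probe set kept its call. Over all probe sets the covariate left 255 calls for IPC against IPC_TRI.

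The Junb call on the brighter probe set ended without IPC 2, IPC 3 or IPC 4 (0.60 to 0.68, adjusted p from 0.065 to 0.084), and on the second without IPC 1, 2 or 3 or IPC_TRI 1 or 2 (0.56 to 0.72, adjusted p from 0.054 to 0.11). On both it also ended with array weights and with only the groups compared, where the brighter had 0.80 (adjusted p = 0.071) and 0.75 (adjusted p = 0.067). Fos and Jun did not overlap in either comparison, where 6.77% (IPC) and 9.21% (APC) of all probe sets were without overlap and higher.

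Whether preconditioned hearts differed from trigger hearts by more or less than ISCH from CTL was tested as a difference of differences. For ischaemic preconditioning the values were -0.11 ± 0.27 for Fos (adjusted p = 0.83), 0.48 ± 0.31 for Jun (adjusted p = 0.30) and 0.79 ± 0.34 for Junb (adjusted p = 0.11). For anaesthetic preconditioning they were 0.31 ± 0.27 for Fos (adjusted p = 0.50), 0.61 ± 0.31 for Jun (adjusted p = 0.21) and 0.49 ± 0.34 for Junb (adjusted p = 0.37). By limma 0 of 5 member genes were called in either test, against 13.6% and 8.22% of all probe sets. With the spike signal as a covariate the counts over all probe sets fell to 70 and 37, against 714 and 431 without it. At an unadjusted p under 0.05 in limma, Junb was the 1 member gene in the first test and 0 member genes were in the second. Over all 5244 probe sets, 1537 and 1335 reached that p. Junb was called in the first test without IPC 5 (0.99, adjusted p = 0.038).

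The direct question of the design is whether preconditioned hearts differed from hearts with ischaemia alone. In IPC against ISCH, Fos had 0.21 ± 0.19 (adjusted p = 0.75, 95% interval -0.19 to 0.60), Jun 0.13 ± 0.22 (adjusted p = 0.87, -0.32 to 0.57) and Junb 0.88 ± 0.24 (adjusted p = 0.13, 0.38 to 1.37). In APC against ISCH, Fos had 0.32 ± 0.19 (adjusted p = 0.53, -0.07 to 0.72), Jun 0.25 ± 0.22 (adjusted p = 0.70, -0.19 to 0.70) and Junb 0.50 ± 0.24 (adjusted p = 0.40, 0.01 to 0.99). Limma called 0 of 5 member genes in both, beside 0.172% of all probe sets for IPC and 0.267% for APC. These small shares turned on single arrays. Leaving out 1 array gave 0 to 89 probe sets for IPC (9 as reported), with 89 without IPC 5, and 1 to 44 for APC (14 as reported), with 44 without IPC 5. At an unadjusted p under 0.05 in limma, Junb was the 1 member gene in each comparison, beside 568 (IPC) and 643 (APC) of 5244 probe sets. All values share the ISCH arrays.

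Junb in IPC against ISCH turned on 1 array. Without IPC 5 it rose by 1.07 (adjusted p = 0.013), and with array weights, which count arrays that stand apart for less, by 0.98 (adjusted p = 0.018). Over 43 alternatives these were the 2 that called it. The second Junb probe set had 0.60 ± 0.25 in IPC (adjusted p = 0.33) and 0.62 ± 0.25 in APC (adjusted p = 0.30), so the size in APC was as large on that probe set as in IPC. On it the IPC arrays read 2278, 3553, 3067, 1647 and 1052, the APC arrays 2387, 2283, 1847, 1847 and 2560, and the ISCH arrays 887.1, 1434, 1703, 1896 and 1058.

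The 3 Fos probe sets agreed, with 0.21 to 0.40 in IPC and 0.32 to 0.42 in APC against ISCH, and none was called. The Jun probe sets did not agree. The dimmest probe set (rc_AA944014_at) had -0.88 ± 0.29 in IPC against ISCH (adjusted p = 0.23), with 355.9, 207.1, 252.8, 328.9 and 412.7 on the IPC arrays and 817.4, 651, 617, 459.9 and 457.3 on the ISCH arrays, which did not overlap. No other Jun probe set was without overlap there, and their values ran from -0.32 to 0.25. Over all probe sets 2.36% did not overlap between IPC and ISCH.

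**Figure D3:**
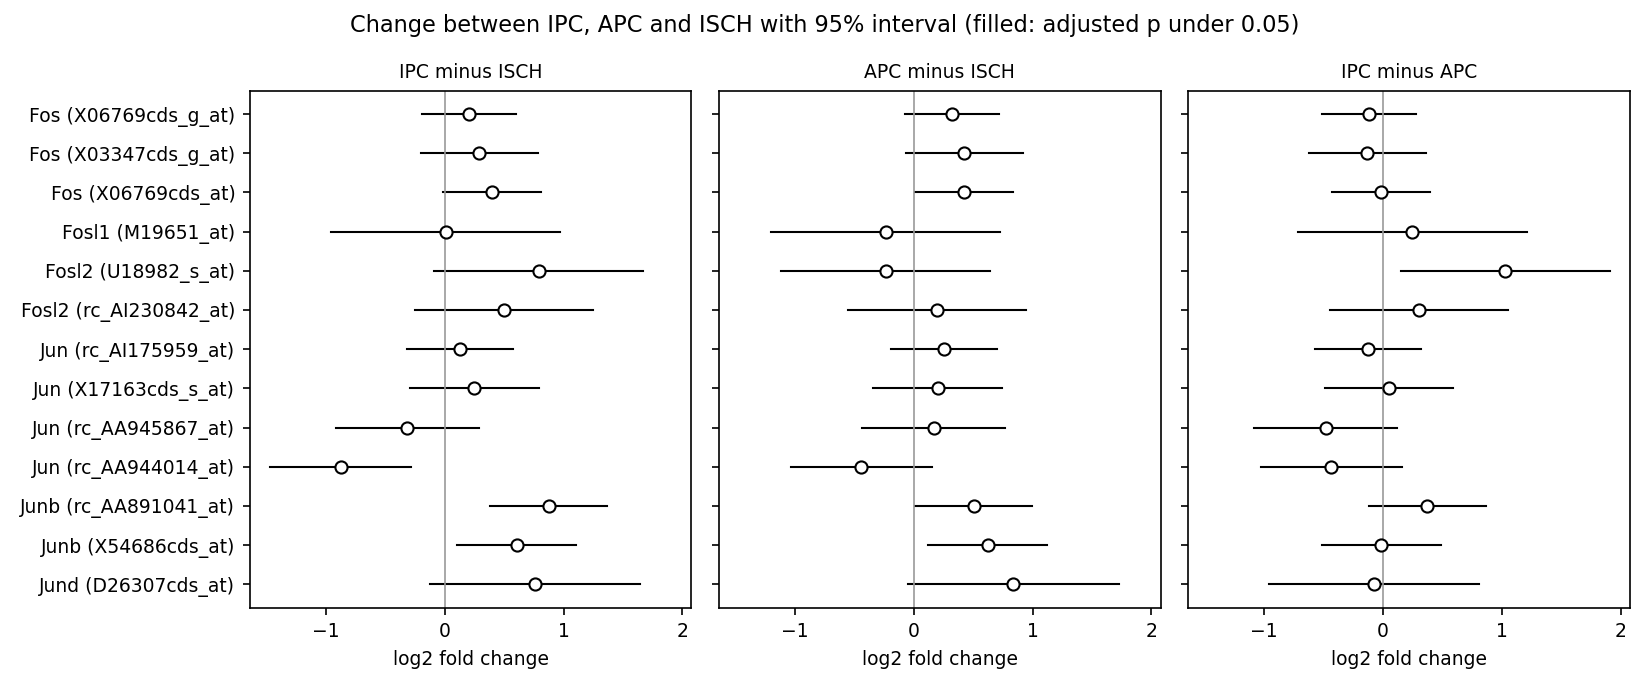
Log2 fold change (horizontal axis) of all 13 member probe sets in IPC minus ISCH, APC minus ISCH and IPC minus APC, with 95% intervals. Jund is taken from the fit without a filter on low values, and filled points would mark an adjusted p under 0.05, which no member reached. Both Junb probe sets lay above 0 in IPC minus ISCH and APC minus ISCH.

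The last direct comparison set the 2 kinds of preconditioning against each other. In IPC against APC, Fos had -0.12 ± 0.19 (95% interval -0.51 to 0.28), Jun -0.13 ± 0.22 (-0.57 to 0.32) and Junb 0.37 ± 0.24 (-0.12 to 0.87), each with an adjusted p of 1.0. Limma called 0 of 5 member genes and 0% of all probe sets. At an unadjusted p under 0.05 there were 137 probe sets, and Fosl2 was the 1 member gene among them. With array weights, with the values as deposited, or with 60% of probe sets left out, 1 probe set was called and no member gene. The intervals leave room for differences as large as their ends, so equal levels were not shown.

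Between the trigger groups, limma called 0 of 5 member genes in IPC_TRI against APC_TRI, beside 0.439% of all probe sets, and none of the 5 reached an unadjusted p under 0.05 among 771 probe sets that did. Fos had 0.30 ± 0.19 (adjusted p = 0.50) on the brightest probe set and 0.12 ± 0.24 on the second, but 0.87 ± 0.20 (adjusted p = 0.044) on the third, X06769cds_at. There the IPC_TRI arrays read 1484, 1628, 2501, 1244 and 1197, against 827.8, 868.6, 701.4, 842.6 and 1220 in APC_TRI. That call held in 24 of 42 alternatives. It ended without any of 12 arrays, which included APC_TRI 1 to 4 and IPC_TRI 2 and 3, with values from 0.71 to 0.87 and adjusted p from 0.051 to 0.10, and also with the replicate block and 5 other settings.

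Probe sets of one gene agreed on the large steps and much less on the differences between single arrays. Across the 15 arrays of IPC, APC and ISCH the Fos probe sets correlated at r = 0.87, 0.83 and 0.73, while across the 15 arrays of IPC_TRI, APC_TRI and CTL the second probe set (X03347cds_g_at) correlated at 0.02 and 0.09 with the other two. Its name carries another accession than the one the gene table gives for it. The 2 brighter Jun probe sets correlated at 0.90 and 0.71 over the same sets of arrays, and the dimmest correlated with the brightest at -0.19 and 0.27. The Junb probe sets correlated at 0.68 and 0.33, and the Fosl2 probe sets at 0.03 and -0.24. These correlations are descriptions over arrays that share their groups.

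Fos and Jun separated the same arrays but did not track each other within them. After the group means were taken off, their deviations correlated at 0.08 over the 30 arrays, against 0.45 within IPC, APC and ISCH and -0.12 within the other 3 groups before that step. IPC 5 was the lowest IPC array on 8 of the 9 Fos, Jun and Junb probe sets, and ISCH 5 the lowest ISCH array on 7 of 9. IPC_TRI 3 was the highest IPC_TRI array on 6 of 9.

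**Figure D4:**
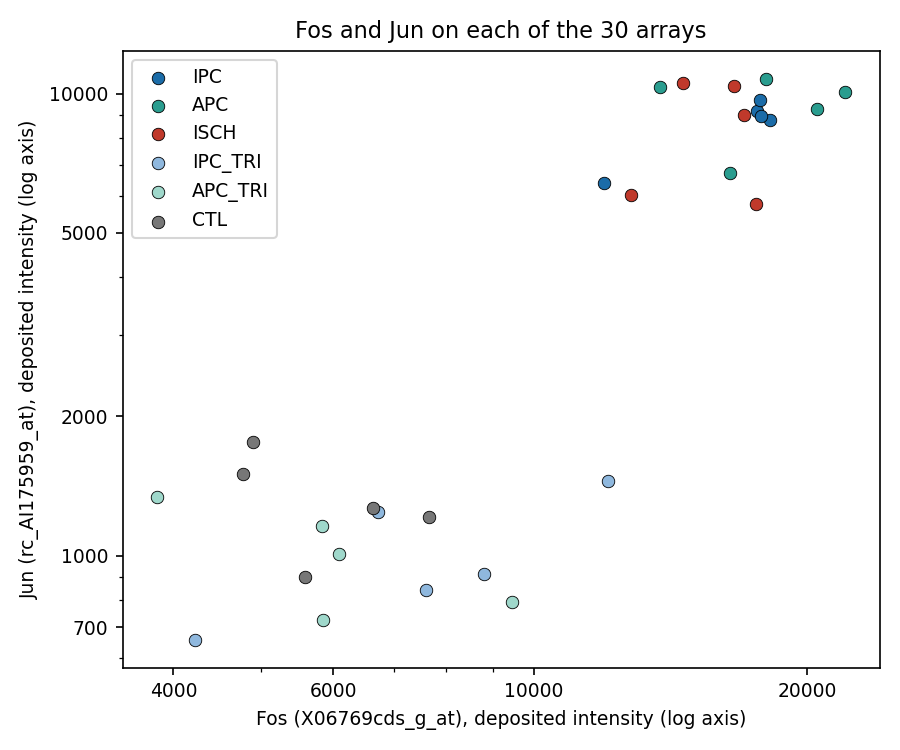
Deposited intensity of Fos (horizontal, log axis) against Jun (vertical, log axis) on each of the 30 arrays, coloured by group. The IPC, APC and ISCH arrays lie apart from the IPC_TRI, APC_TRI and CTL arrays, and IPC_TRI 3 reaches the Fos level of IPC 5 with Jun at 1450.

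Fosl1 and Fosl2 encode Fra-1 and Fra-2, Fos relatives without the strong activation domain of Fos, and Fosl1 is itself known as a slower target of AP-1. Their signals were low. The highest group mean of Fosl1 was 178 ± 72.4 in IPC_TRI and the lowest 75.0 ± 35.3 in CTL, with single arrays from 28.7 to 296.2. The 2 Fosl2 probe sets had group means from 144 to 275 and from 143 to 210. Every pair of neighbouring groups overlapped for each of these genes.

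Neither gene was called in any comparison. For Fosl1 the widest change against CTL was 0.86 ± 0.47 in IPC_TRI (adjusted p = 0.21). For Fosl2 it was -0.90 ± 0.43 in APC (adjusted p = 0.43), where the second probe set had 0.24 ± 0.37, of opposite sign. In IPC against APC, Fosl2 had 1.03 ± 0.43 on one probe set and 0.30 ± 0.37 on the other (adjusted p = 1.0 for both). In ISCH against CTL the intervals were -0.58 to 1.35 for Fosl1 and -1.55 to 0.21 for Fosl2. The rise of the brightest Fos probe set there (1.29) lies inside the first and outside the second. The rises of the other Fos probe sets (1.76 and 1.77) lie outside both.

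Jund, the Jun family member that is expressed steadily in many resting tissues, had the dimmest probe set (D26307cds_at). Its arrays ran from 48.7 through a median of 77.5 to 171.1 in IPC, from 25 through 86.7 to 264.5 in APC, from 34.3 through 37.9 to 95.7 in ISCH, from 28.8 through 50 to 97.1 in IPC_TRI, from 23.4 through 45.2 to 134.3 in APC_TRI, and from 21.9 through 59.2 to 69.9 in CTL. All groups overlapped. In the fit without a filter on low values its widest change against CTL was 0.81 ± 0.43 in APC (adjusted p = 0.67), and no comparison called it.

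**Figure D5:**
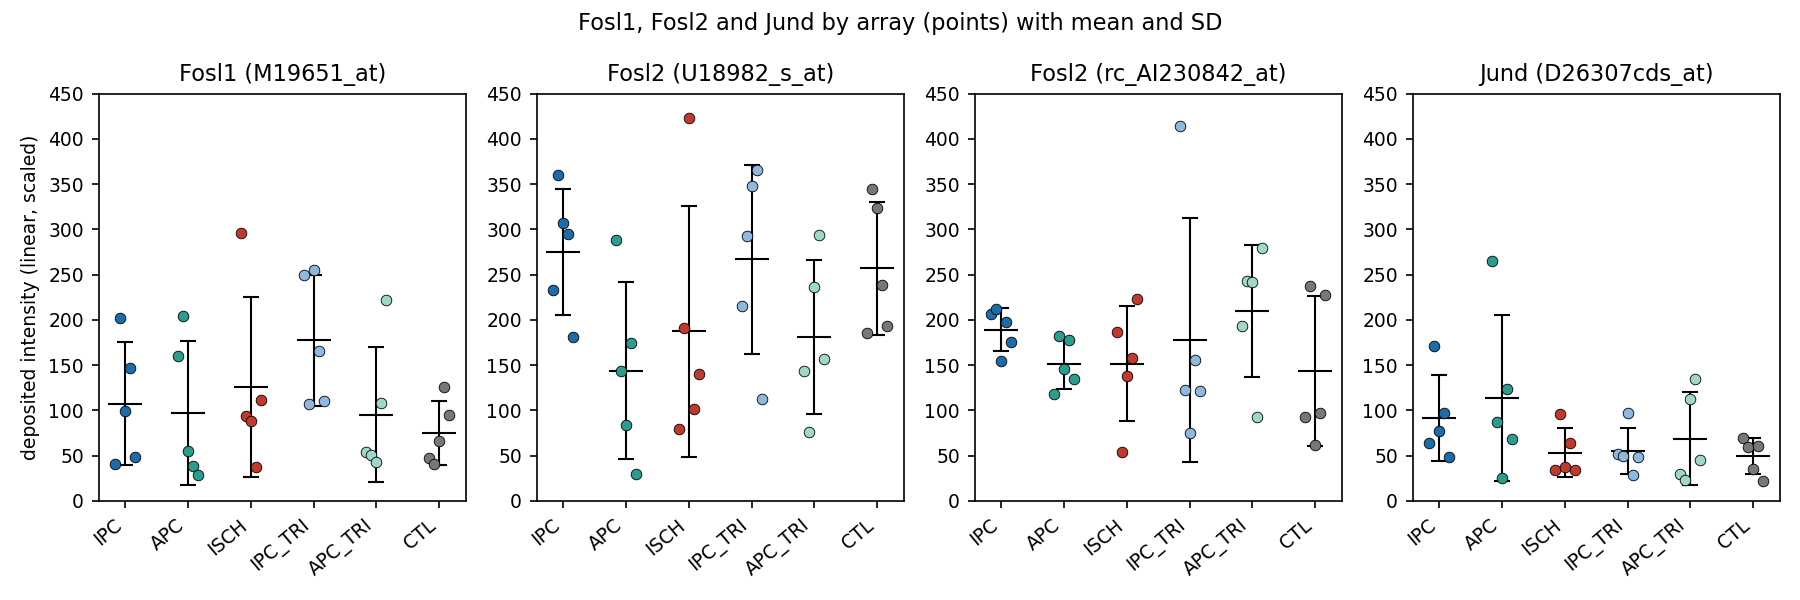
Deposited intensity (linear scale, from 0) of the Fosl1, Fosl2 and Jund probe sets on each of the 30 arrays, by group. Points are arrays, and lines are the mean and SD of 5 arrays. All groups overlapped on each of the 4 probe sets.

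The genes tested whose signal followed each of Fos, Jun and Junb most closely over the 30 arrays were taken by Pearson's r. For Jun these were Hsph1, a large heat shock chaperone (r = 0.97), the zinc finger factor gene Klf4 (r = 0.95) and Egr1, another immediate early zinc finger factor (r = 0.90). For Fos they were Hsph1 (r = 0.91), Dnaja1, a co-chaperone (r = 0.89), and Egr1 (r = 0.88). Much of this likeness was the step between groups. Within the 15 arrays of IPC, APC and ISCH, Jun and Hsph1 correlated at 0.40, and Fos and Hsph1 at 0.07. For Junb the closest were Ccdc117 (r = 0.69), Ppp2r2a, a regulatory subunit of protein phosphatase 2A (r = 0.65), and Cish, a cytokine-induced signalling inhibitor (r = 0.64). Within the same 15 arrays these had 0.82, 0.76 and 0.81, and within the 15 arrays of IPC_TRI, APC_TRI and CTL 0.28, 0.31 and 0.43.

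The wider AP-1 pathway was read from lists of genes, chosen with earlier results of these data known. Its counts stand beside 3.95% of all probe sets called higher and 4.82% lower in ISCH, 1.87% and 2.02% in IPC, and 1.37% and 2.29% in APC, each against CTL. Of 12 genes on the array for other leucine zipper partners of AP-1, 10 were tested. Of these, 1 rose and 1 fell in ISCH against CTL. Ddit3, a stress-induced dimer partner, read 1809 ± 515 in ISCH and 983 ± 298 in CTL (0.93 ± 0.22, adjusted p = 0.0070). Cebpd, a related leucine zipper factor, read 268.9 ± 89.5 in ISCH and 1000 ± 305 in CTL (-1.81 ± 0.36, adjusted p = 0.0011). The Ddit3 call ended with median centring, and the Cebpd call with the spike signal as a covariate. The list's median was -0.18, against -0.01 over all probe sets. In IPC against CTL, 1 partner rose and 0 fell, and in APC 1 rose and 1 fell. Counts of 1 in 10 genes are too few to read against these shares.

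The 10 MAP kinase genes, whose products act on AP-1 largely by phosphorylation, had 0 called by limma in ISCH, IPC or APC against CTL, with 1, 1 and 0 at an unadjusted p under 0.05. Their median in ISCH was -0.25. Of 4 genes on the array for factors known to bind the Fos and Jun promoters, 3 were tested. Limma called 0 of these in the same comparisons, with 1, 0 and 1 at an unadjusted p under 0.05. Over all 5244 probe sets, 1125 (ISCH), 591 (IPC) and 562 (APC) reached that p. MAP kinase phosphatases switch those kinases off, and 3 of 4 on the array were tested. Among these, Dusp1 read 3282 ± 499 in ISCH and 1143 ± 186 in CTL (1.58 ± 0.17, adjusted p = 7.9e-08). Dusp1 also rose in IPC (1.45, adjusted p = 4.4e-07) and APC (1.38, adjusted p = 7.2e-07), and each of these 3 calls held in all 42 alternatives run for that probe set.

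Of 20 other immediate early genes, 4 rose and 2 fell in ISCH, 4 rose and 0 fell in IPC, and 3 rose and 1 fell in APC, each against CTL. In ISCH, Klf4 rose by 1.96 ± 0.28 (adjusted p = 8.9e-06) and the orphan nuclear receptor gene Nr4a1 by 1.41 ± 0.19 (adjusted p = 2.2e-06). Egr1 rose by 0.83 ± 0.23 (adjusted p = 0.017), a call that ended without CTL 1, ISCH 3 or ISCH 5 (0.71 to 0.77, adjusted p from 0.0502 to 0.072). That call also ended with median centring and with the beta-actin ratio as a covariate. The remaining gene that rose in ISCH held its call in 22 of 42 alternatives. Btg1, an antiproliferative gene, fell by 0.68. In IPC and APC, Klf4 rose by 2.49 and 2.18 and Egr1 by 1.31 and 1.55. The list's median in ISCH was 0.15, and most of these genes were not called there. Against their triggers, 9 of the 20 rose and 2 fell in IPC, and 7 rose and 1 fell in APC. These counts stand beside 14% and 9.82% of all probe sets called higher there, and 23.4% and 17.7% called in either direction. The list's medians were 0.41 and 0.48.

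Genes described elsewhere as AP-1 targets did not rise as a group among those tested. Of 27 on the array, 20 were tested, and the others were left out by the filter on low values. Against CTL, 2 of the 20 rose and 6 fell in ISCH, and 0 rose and 3 fell in IPC. In APC 0 rose and 4 fell. The medians were -0.24 in ISCH, 0.09 in IPC and -0.18 in APC. Ccl2, a chemokine gene, read 3312 ± 1090 in ISCH and 11426 ± 1397 in CTL (-1.91 ± 0.22, adjusted p = 2.0e-07). The adhesion molecule gene Icam1 read 2335 ± 695 in ISCH and 11046 ± 783 in CTL (-2.36 ± 0.28, adjusted p = 3.5e-07). Nqo1, a quinone reductase gene, read 488.8 ± 155 in ISCH and 2184 ± 1181 in CTL (-2.03 ± 0.27, adjusted p = 2.8e-06). The cyclin gene Ccnd1 rose, at 720.5 ± 226 in ISCH and 295.3 ± 120 in CTL (1.28 ± 0.28, adjusted p = 0.0028). Other factors, NF-kappa B among them, also act on several of these genes.

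In the trigger groups the list counts stand beside 6.46% of all probe sets called higher and 10.1% lower in IPC_TRI, and 3.72% and 4.92% in APC_TRI. In IPC_TRI against CTL, 2 of 10 partners fell. The repressor gene Atf3 read 3778 ± 642 in IPC_TRI and 7020 ± 910 in CTL (-0.89 ± 0.18, adjusted p = 0.0012). Ddit3 fell by 0.99 (adjusted p = 0.0038), a call that ended with only the groups compared and with the beta-actin ratio as a covariate. The kinase gene Mapkapk2 rose in both trigger groups, by 0.70 ± 0.15 in IPC_TRI (adjusted p = 0.0031) and by 0.87 ± 0.15 in APC_TRI (adjusted p = 6.2e-04). Its call in IPC_TRI ended with median centring. Of 3 factors on the Fos and Jun promoters, Stat3 fell in IPC_TRI (-0.73 ± 0.26, adjusted p = 0.047), a call that held in 18 of 42 alternatives. Of 20 immediate early genes, 1 rose and 3 fell in IPC_TRI, among them Klf4 (-1.02, adjusted p = 0.014) and Ier5 (1.22, adjusted p = 0.0093). Atf3, already counted as a partner, was also among those that fell. The Klf4 call ended with only the groups compared, with array weights and with the beta-actin ratio as a covariate. The Ier5 call ended with that covariate. In APC_TRI 1 rose, Nr4a1 (0.74 ± 0.19, adjusted p = 0.011), a call that ended with median centring. Of 20 AP-1 target genes, 3 rose and 2 fell in IPC_TRI, with Nqo1 at -1.32 (adjusted p = 0.0016), and limma called 0 in APC_TRI, with 8 at an unadjusted p under 0.05. The 3 that rose in IPC_TRI held their calls in 16 of 41, 28 of 42 and 32 of 42 alternatives. All 3 calls ended with only the groups compared, with array weights and with the beta-actin ratio as a covariate. The 2 that fell held in 42 of 42 (Nqo1) and 37 of 42. In IPC and APC against ISCH, limma called 0 genes of any of these lists. At an unadjusted p under 0.05 the AP-1 targets had 7 in IPC and 2 in APC. The other immediate early genes had 4 and 6, the partners 3 and 1, and the MAP kinases 2 and 1. The phosphatases and the factors on the Fos and Jun promoters had 0 in both. Over all 5244 probe sets, 568 and 643 reached that p.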

How the data were processed

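Total RNA of rat left ventricle was measured on 30 Affymetrix arrays, each assigned to the protocol that its title names. The deposited values are intensity values on a linear scale, 1 per probe set and array, and their common trimmed mean (2% trimmed, 500.8 to 501) shows a scaling before deposit. RNA was handled by the maker's recommended procedures, per the labels. Which software made the values is not given in the sources used here. Zeros numbered 5 among all values, and 0 sample columns were left unused. No 2 arrays were identical (0 pairs), with r at most 0.976.

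Values were taken as log2(intensity + 16) and quantile normalized. Tests left out 59 control probe sets and then the dimmest 40% by mean, which kept 5244 probe sets for 3155 genes. Limma 3.58.1 in R 4.3.3 fitted 1 mean per group over all 30 arrays, with moderated variances that follow a trend, and p-values were adjusted by Benjamini-Hochberg within each of 13 contrasts. The probe set with the highest mean stood for a gene. The fit was tested on simulated data with known changes. The members and lists were chosen with earlier results of these data known. For pathway lists the text names up to 4 called genes with the smallest p in ISCH, IPC_TRI and APC_TRI against CTL and in IPC and APC against ISCH, and for each of Fos, Jun and Junb the 3 genes with the highest Pearson r over all arrays. Promoter windows were RefSeq's, searched on both strands.

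Alternatives were pseudocounts of 1 and 64, no filter, 60% left out, no normalization beyond the deposited scaling, centring on medians, a replicate block, only the groups compared, array weights, a covariate for the spike signal or for the beta-actin ratio, the mean over a gene's probe sets, IPC_TRI 5 and ISCH 1 left out together, and each array left out in turn. The same replicate numbers recur in every group. Over 75 same-numbered pairs, deviations from the group means correlated between -0.15 and 0.21 (median 0.0061), so the numbers were not taken to pair samples. Nothing says beyond the label "biological replicate" how the animals were handled. Python 3.11.15 made the tables (pandas 2.3.3, numpy 2.4.6, scipy 1.17.1) and the figures (matplotlib 3.10.9).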

Additional observations from a re-analysis of the deposited data

Results flagged for a closer look

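In groups of 5 arrays, 7 of 78 combinations of a member probe set and a group held an array whose gap to its nearest neighbour exceeded 0.71 of the group's range, Dixon's 95% limit, which chance passes in about 1 in 20 groups. Fos (X06769cds_g_at) was low on IPC 5 (11955, gap ratio 0.906), as was Jun (rc_AI175959_at) on the same array (6391, 0.723). Fos (X03347cds_g_at) was high on ISCH 1 (19418, 0.786). Jun was low on APC 3 by X17163cds_s_at (2115, 0.749) and high on APC 1 by rc_AA944014_at (593.8, 0.800). Fosl1 was high on ISCH 1 (296.2, 0.713), and Fosl2 (rc_AI230842_at) was high on IPC_TRI 1 (413.7, 0.762). ISCH 1 did not pass that limit on the other Fos probe sets.

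The third Fos probe set (X06769cds_at) changed more between APC and APC_TRI than between ISCH and CTL, by 0.94 ± 0.29 on the log2 scale (limma's interaction term, adjusted p = 0.037). It was higher by 2.71 in APC against APC_TRI and by 1.77 in ISCH against CTL, with no overlap in either. The other Fos probe sets had 0.31 ± 0.27 and 0.03 ± 0.34 for the same difference and were not called. The call held in 28 of 42 alternatives, and ended without any of 12 arrays (APC 1, 2 and 4, APC_TRI 1 to 4, CTL 3 and 5, ISCH 1, 3 and 5), with values from 0.84 to 0.94 and adjusted p from 0.052 to 0.074.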

How the results depend on the processing

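Of 2782 values of 1 gene in 1 comparison under 43 alternatives, 2754 stayed on their side of the threshold (77 of them changed sign without being called in either fit), 23 lost a call, 5 gained one and 0 reversed with a call. The calls of Fos and Jun in ISCH, IPC and APC against CTL and in IPC and APC against their triggers held in 44 of 44 settings, with Fos in ISCH between 1.21 and 1.60 and Jun between 2.25 and 2.75. All calls lost were of Junb, in IPC against CTL (17 alternatives, 13 of them leaving out 1 array) and IPC against IPC_TRI (6, of which 3). Counts of member genes called changed from 0 to 1 in IPC_TRI against CTL with the mean over probe sets (Jun), in IPC against ISCH with array weights (Junb), and in the difference of IPC minus IPC_TRI from ISCH minus CTL with median centring (Junb, 1.30, adjusted p = 0.018). Leaving out 1 array gave 0 to 1 in the last 2 of these, with 1 reached without IPC 5. With the replicate block, Fos in ISCH had 1.29 (adjusted p = 5.2e-05) and Junb in IPC against CTL an adjusted p of 0.048, and no call of a member gene changed. Of single probe sets, Jun rc_AA944014_at in IPC against CTL and Fos X06769cds_at in IPC_TRI against APC_TRI lost their calls with the block. Counts over all probe sets moved more. Array weights gave 933 in ISCH, 398 in IPC, 383 in APC, 394 in IPC_TRI and 1065 in APC_TRI against CTL (460, 204, 192, 869 and 453 as reported), and 267 in IPC and 203 in APC against ISCH (9 and 14 as reported). The spike covariate gave 157 in ISCH against CTL, 0 in both comparisons with ISCH, and 70 and 37 in the differences of differences (714 and 431 as reported). Fitting only the groups compared gave 298 in APC, 238 in IPC_TRI and 821 in APC_TRI against CTL. The actin covariate gave 431 in IPC_TRI and 274 in APC_TRI against CTL, 255 in IPC against IPC_TRI and 614 in APC against APC_TRI (1228 and 928 as reported). Without CTL 4 there were 567 in IPC_TRI and 281 in APC_TRI against CTL, and leaving out 1 array gave 8 to 89 in IPC_TRI against APC_TRI (23 as reported). In the test of any group difference, 2 to 3 member genes were called with 1 array left out, and 4 with array weights. The causes were not tested. Dim probe sets of Fosl1, Fosl2 and Jund limit what can be seen of those genes, and 5 arrays a group limit all values.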
